A study of Mus musculus with 10 samples.

Results

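The 10 genes that mark retinal bipolar cells or carry their light response (Grm6, Trpm1, Gpr179, Nyx, Cabp5, Prkca, Pcp2, Gng13, Cacna1s and Scgn) were examined here in peak lists from mouse retina with and without Casz1. They were taken by name, 10 of 21631 protein-coding genes on chromosomes 1 to 19 and X. No measured value enters the rule, though the list was drawn up with earlier results of these data known. For each, the peaks of 8 lists were read over the gene body and 20 kb either side, a window that held 1126.19 kb over the 10 genes together. All animals were C57BL/6 mice. ATAC-seq, in which the transposase Tn5 inserts into accessible DNA, was done on retinal explants labelled postnatal day 2. The control explants, labelled wild type, were given a plasmid for GFP by itself, and the Casz1 conditional knockout (cKO) explants a plasmid for GFP and Cre. From each, 50000 living GFP-positive cells were sorted after 2 days in culture, with 2 libraries per genotype. ChIP-seq of 2 histone marks used retina dissected at postnatal day 0, with 1 wild-type and 1 cKO library for each. For the cKO, peripheral retina was picked by its fluorescence, and no source used here names the Cre driver of that tissue. The labels give no part of the retina for the control tissue, so genotype and retinal position cannot be told apart in the ChIP-seq comparison. Both designs compare the chromatin of retinal cells that have or lack Casz1, which is a zinc finger transcription factor of retinal progenitors.

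Bipolar cells pass the signal of photoreceptors to ganglion and amacrine cells. In the ON type, glutamate released in the dark holds the receptor mGluR6 (Grm6) active, and its Go protein keeps the cation channel TRPM1 closed. Light lowers the glutamate and the channel opens. GPR179 anchors the RGS proteins that switch the G protein off, and nyctalopin (Nyx) is a leucine-rich repeat protein needed for TRPM1 at the dendritic tips. Loss of Grm6, Trpm1, Gpr179 or Nyx causes congenital stationary night blindness. Bipolar cells are among the last retinal cells to be born in the mouse, largely after birth. H3K27ac marks active promoters and enhancers, and H3K27me3 is laid down by Polycomb repressive complexes.

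The DNA just before the RefSeq starts of 6 of the genes is shown as examples of different states: Prkca was open and acetylated in every list, the second Trpm1 start was open in 3 ATAC lists, Gpr179 was acetylated without an ATAC peak, Grm6 and Cacna1s lay inside an H3K27me3 peak, and Cabp5 and the first Trpm1 start had no peak at all. The stretches of Scgn and Gng13, which are not printed, lay under H3K27me3 in both genotypes as well. Each line gives the 250 bases that end at the start (RefSeq, build GRCm38.p6, called mm10), read in the direction of the gene. Capitals mark TAATCC, the homeodomain motif bound by Crx and Otx2, or its complement GGATTA.
Grm6, chr11:50850435-50850684, plus strand: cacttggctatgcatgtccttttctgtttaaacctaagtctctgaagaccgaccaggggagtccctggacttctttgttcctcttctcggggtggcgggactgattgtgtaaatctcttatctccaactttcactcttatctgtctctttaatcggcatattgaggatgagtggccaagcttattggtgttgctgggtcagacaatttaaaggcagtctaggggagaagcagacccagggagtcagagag
Trpm1 first start, chr7:64153585-64153834, plus strand: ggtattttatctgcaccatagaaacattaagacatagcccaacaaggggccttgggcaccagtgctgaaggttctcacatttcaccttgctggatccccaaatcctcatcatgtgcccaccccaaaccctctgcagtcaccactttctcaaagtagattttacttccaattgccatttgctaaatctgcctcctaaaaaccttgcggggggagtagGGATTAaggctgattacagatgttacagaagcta
Trpm1 second start, chr7:64185209-64185458, plus strand: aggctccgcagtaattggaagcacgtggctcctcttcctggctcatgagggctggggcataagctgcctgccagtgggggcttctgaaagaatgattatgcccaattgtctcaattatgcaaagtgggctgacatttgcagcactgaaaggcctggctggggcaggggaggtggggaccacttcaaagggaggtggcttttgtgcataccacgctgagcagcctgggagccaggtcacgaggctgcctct
Gpr179, chr11:97352357-97352606, minus strand: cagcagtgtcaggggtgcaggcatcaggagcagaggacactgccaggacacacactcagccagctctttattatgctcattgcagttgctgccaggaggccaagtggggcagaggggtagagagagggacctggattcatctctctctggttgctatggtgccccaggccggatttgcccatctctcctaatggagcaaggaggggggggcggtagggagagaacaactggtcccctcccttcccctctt
Cabp5, chr7:13397905-13398154, plus strand: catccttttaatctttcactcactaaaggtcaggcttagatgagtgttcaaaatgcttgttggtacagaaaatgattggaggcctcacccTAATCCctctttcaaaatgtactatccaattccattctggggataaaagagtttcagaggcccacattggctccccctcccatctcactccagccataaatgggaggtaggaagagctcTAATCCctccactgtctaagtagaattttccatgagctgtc
Prkca, chr11:108343889-108344138, minus strand: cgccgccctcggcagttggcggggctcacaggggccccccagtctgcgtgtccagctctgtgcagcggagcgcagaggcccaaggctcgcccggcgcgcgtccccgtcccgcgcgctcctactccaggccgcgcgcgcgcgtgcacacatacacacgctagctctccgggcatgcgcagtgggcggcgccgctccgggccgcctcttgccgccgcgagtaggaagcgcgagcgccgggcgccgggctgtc
Cacna1s, chr1:136052561-136052810, plus strand: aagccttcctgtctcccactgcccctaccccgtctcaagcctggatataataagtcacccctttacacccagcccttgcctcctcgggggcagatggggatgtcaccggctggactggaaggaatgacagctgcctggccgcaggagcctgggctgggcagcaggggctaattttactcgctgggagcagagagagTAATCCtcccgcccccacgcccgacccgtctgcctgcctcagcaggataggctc

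All 10 genes matched the RefSeq promoter table, with 15 starts. TAATCC, searched on both strands, stood in the 250 bases before a start of 3 genes, all of them among those printed. It lay once at the first Trpm1 start (34 bases before the start, on the opposite strand), at 160 and 41 bases before the Cabp5 start and at 54 bases before the Cacna1s start. That is 3 of 15 promoters, and 6.25% of 32851 promoters in the table held it. The homeodomain motif TAATTA was found at 1 of 15 (a Pcp2 start), beside 4.84% of all promoters. The E-box CANNTG, the site of basic helix-loop-helix factors, was found at 12 of 15, beside 66.2%. These 12 belong to 7 of the 10 genes. The stretches of the 4 Pcp2 starts overlap in part, so the same E-box could count at more than 1 start. No TAATCC overlapped a TAATTA. The Prkca stretch was 76.8% G and C, above the 52.4% median of all promoters, while the Cabp5 stretch had 44% and that of the first Trpm1 start 46%. A match of letters is a description and does not show binding.

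In the lists, the genes fell into different states at their starts. Within 1 kb of a start, H3K27me3 was called at 7 of 10 genes in either genotype: Grm6, Trpm1, Nyx, Prkca, Gng13, Cacna1s and Scgn. Over 32619 starts in the table, 22.2% had such a peak in control and 21.8% in cKO. H3K27ac was called within 1 kb at 4 of 10 in either genotype (Trpm1, Gpr179, Nyx and Prkca), beside 50.2% and 50.0% of all starts. Since 3 of the genes have more than 1 start, the gene counts and the shares of starts are not over the same unit. Trpm1, Nyx and Prkca carried both marks within 1 kb. Cabp5 and Pcp2 carried neither.

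**Figure D1:**
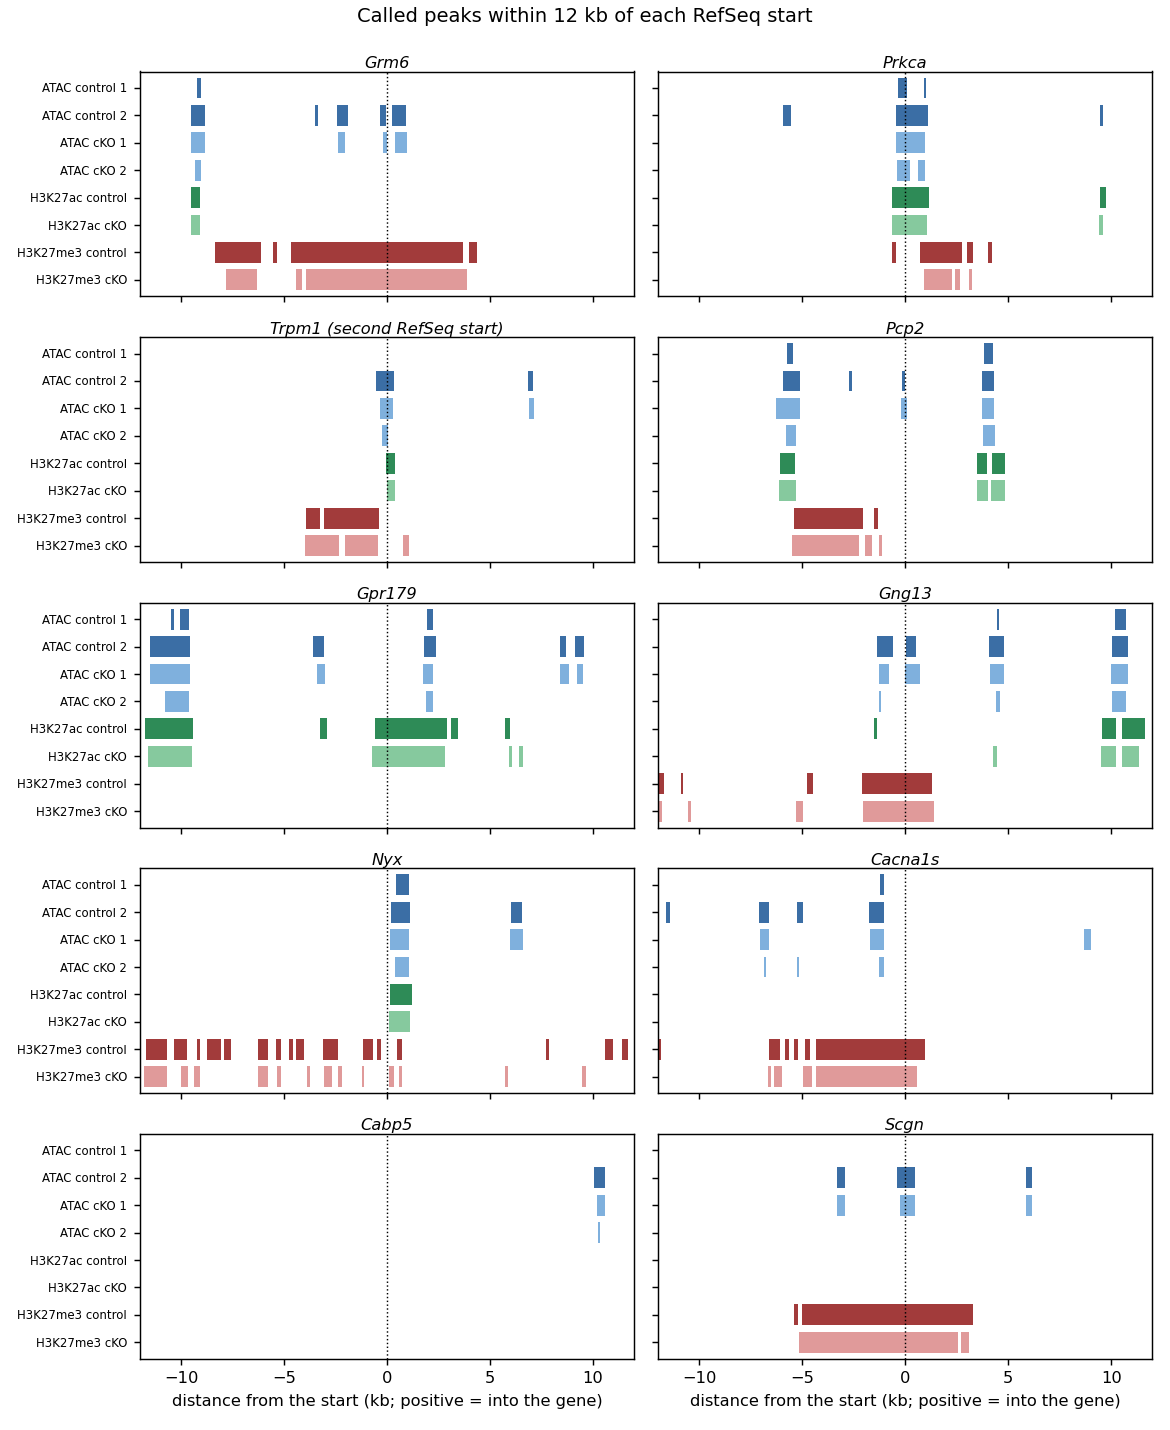
Called peaks within 12 kb of a RefSeq start of each of the 10 genes, as distance in kb (positive into the gene), with 1 row per list and dark and light shades for control and cKO; Trpm1 is shown around its second start. H3K27me3 blocks span the starts of Grm6, Gng13, Cacna1s and Scgn in both genotypes, H3K27ac sits at Gpr179, Nyx, Prkca and Trpm1, and Cabp5 has 1 ATAC region and no mark.

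Grm6, the glutamate receptor, lay under an H3K27me3 domain. The control peak over its start ran for 8313 bp (chr11:50846045-50854357) and the cKO peak for 7833 bp (chr11:50846746-50854578). Both covered the whole printed stretch of 250 bases. H3K27me3 took up 23.4% of the Grm6 window in control and 20.6% in cKO, the highest share of the 10 genes and above 90.7% and 89.4% of all genes. ATAC peaks stood inside this domain: control 2 covered 979 bp within 1 kb of the start and cKO 1 covered 771 bp, whereas control 1 and cKO 2 had none there. The H3K27ac of the window was 1 peak of 472 bp in control and 457 bp in cKO, 9.068 kb and 9.064 kb before the start and at or near the neighbouring gene.

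Trpm1, the cation channel, has 2 RefSeq starts, at 64153835 and 64185459 on the plus strand of chromosome 7. No list had a peak on the stretch printed for the first. The nearest ATAC region to it, called in all 4 lists, began 1.756 kb inside the gene. At the second start, the ATAC region chr7:64184909-64185812 was called in control 2, cKO 1 and cKO 2 but not in control 1, and H3K27ac covered 401 bp in control and 367 bp in cKO. H3K27me3 stopped short of that start, at 0.403 kb before it in control (a peak of 2663 bp) and 0.456 kb in cKO. The cKO list had a further H3K27me3 peak of 271 bp, 0.774 kb past the start, with no control peak over it.

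Gpr179, the RGS anchor, was the most acetylated of the 10 per length. H3K27ac filled 14.7% of its window in control and 12.3% in cKO, more than in 93.1% and 91.2% of all genes. A peak of 3478 bp in control (chr11:97349443-97352920) and 3561 bp in cKO (chr11:97349531-97353091) spanned the start and the whole printed stretch. No ATAC list had a peak within 1 kb of that start, and the nearest, called in all 4 lists, lay 1749 bp inside the gene (chr11:97349956-97350607), still under the acetylated block. H3K27me3 was nearly missing, with 170 bp in control and 399 bp in cKO.

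Nyx, on the X chromosome, paired an open start with scattered H3K27me3. All 4 ATAC lists had a peak just inside the start, covering 546 bp in control 1, 808 bp in control 2, 853 bp in cKO 1 and 618 bp in cKO 2 within 1 kb of it. The H3K27ac peak at the start was 1057 bp wide in control and 1002 bp in cKO, of which 847 and 898 bp lay within 1 kb of it. A second site 41.0 kb past the start in control and 40.9 kb in cKO had 1486 bp and 1535 bp of H3K27ac and an ATAC region in all 4 lists. These were the only H3K27ac peaks of the window in either list, and no other protein-coding gene lies in it.

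Gng13, the gamma subunit that works with Go in ON bipolar cells, Scgn (secretagogin, a calcium-binding protein of cone bipolar cells) and Cacna1s (an L-type calcium channel subunit best known from skeletal muscle) each had an H3K27me3 block over the start in both genotypes. At Scgn it was 8300 bp in control and 7697 bp in cKO, at Cacna1s 5266 and 4938 bp, and at Gng13 3430 and 3450 bp. The control and cKO blocks thus differed in width by less at Gng13 than at Scgn or Cacna1s. Scgn had ATAC peaks only in control 2 and cKO 1, which covered 873 and 697 bp within 1 kb of its start. At Gng13, too, only those 2 lists had a peak within 1 kb of a start, and at Cacna1s no list had, the nearest region being 1019 bp before it and called in all 4. H3K27ac lay over none of the starts of the 3 genes.

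Prkca, protein kinase C alpha and the usual antibody marker of rod bipolar cells, spans 410.5 kb and was open and acetylated at its start. All 4 ATAC lists covered the whole printed stretch of 250 bases, the only promoter of the 15 for which that held, and H3K27ac covered it too, in peaks of 1763 bp in control and 1719 bp in cKO. Past the start, the widest H3K27me3 peak in the gene began 0.738 kb inside it in control (2034 bp) and 0.925 kb inside in cKO (1346 bp). Deep within the gene, 179.9 kb from the start, stood the widest H3K27ac peak of the 10 windows, 4040 bp in control and 4030 bp in cKO. The H3K27me3 at the far side of the window, a control peak of 7630 bp, reached the neighbouring gene Cacng5.

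**Figure D2:**
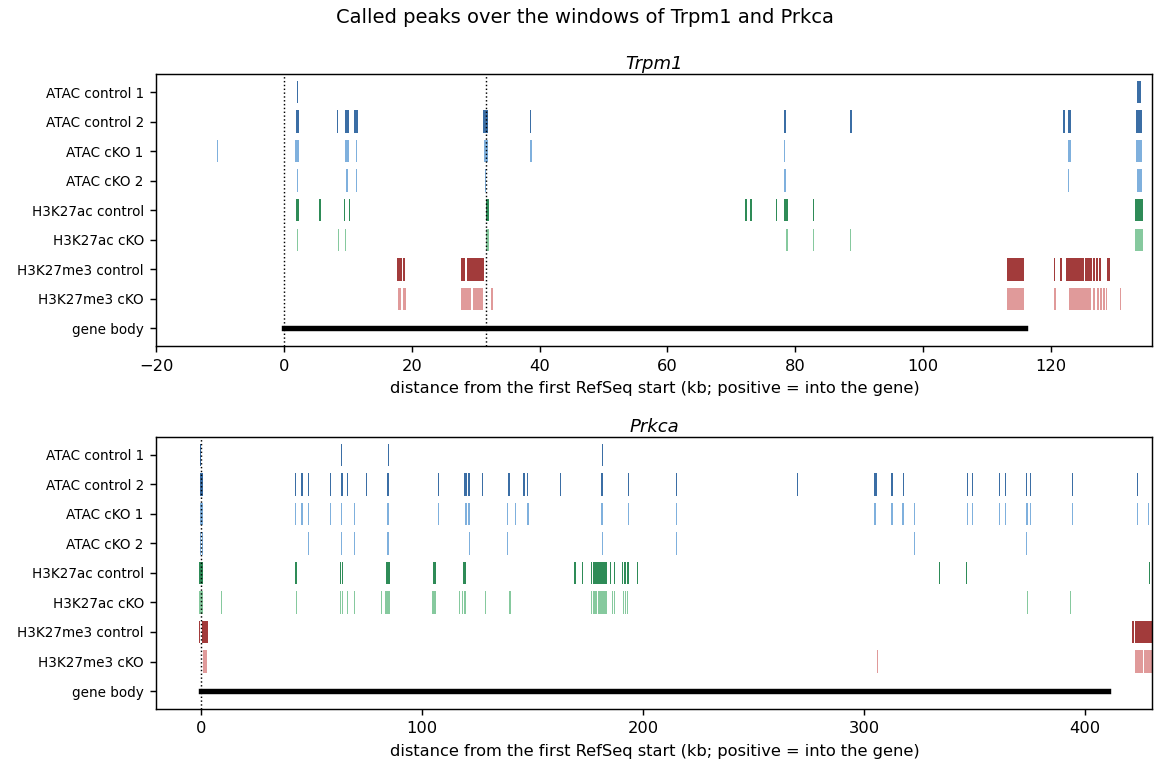
Called peaks over the whole windows of Trpm1 and Prkca, as distance in kb from the first RefSeq start (dotted lines mark starts, the black bar the gene body), 1 row per list. In Trpm1 the control H3K27ac list has 11 peaks and the cKO list 8; in Prkca the acetylated cluster near 180 kb is present in both lists.

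Cabp5, a calcium-binding protein of rod and some cone bipolar cells, was the emptiest of the 10. It had 1 ATAC region (chr7:13408205-13408734), which covered 0 bp in control 1, 530 bp in control 2, 372 bp in cKO 1 and 114 bp in cKO 2. The region lay 10.05 kb past the RefSeq start used here, near the 3′ end of the gene. That start, at 13398155, lies inside the annotated gene body, which spans 13385960 to 13408887. Neither mark was called anywhere in its 62.9 kb window in either genotype. Pcp2, a Go-binding protein of rod and ON bipolar cells and of cerebellar Purkinje cells, had no mark on its 2179 bp body. An ATAC region at chr8:3625440-3625737 was called only in control 2 and cKO 1. In control 2 it covered 10 bp of the body and reached 1 of the 4 starts. In cKO 1 it covered 108 bp of the body and reached 2. All H3K27ac of the Pcp2 window lay within 1 kb of, or inside, 4 other genes that crowd it (Camsap3, Xab2, Pet100 and Stxbp2).

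**Figure D3:**
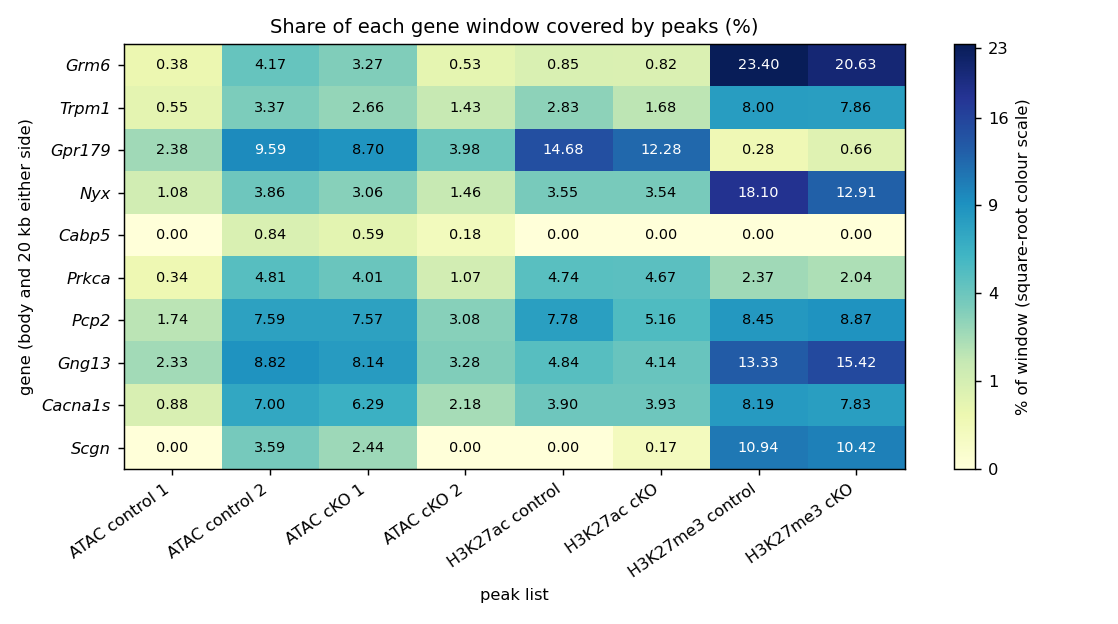
Share of each gene's window (body and 20 kb either side) covered by peaks, in percent, for each of the 8 lists; rows are genes, columns lists, and darker cells are higher on a square-root colour scale. Grm6 and Nyx have the highest H3K27me3 shares, Gpr179 the highest H3K27ac shares, and Cabp5 is at 0 for both marks.

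Per length of window, the 10 genes had a higher median of H3K27me3 than all genes in both genotypes, and medians nearer to those of all genes in the other assays. The median share of a window under H3K27me3 was 8.32% in control and 8.37% in cKO over the 10, beside 1.23% and 1.15% over all genes. For H3K27ac the medians were 3.72% and 3.73% over the 10 and 2.98% and 2.85% over all genes. For ATAC they were 0.711%, 4.49%, 3.64% and 1.44% in control 1, control 2, cKO 1 and cKO 2, beside 0.906%, 4.05%, 3.55% and 1.46%. In order of the control H3K27me3 share the genes ran Grm6 (23.4%), Nyx (18.1%), Gng13 (13.3%), Scgn (10.9%), Pcp2 (8.45%), Cacna1s (8.19%), Trpm1 (8.002%), Prkca (2.37%), Gpr179 (0.282%) and Cabp5 (0). The cKO order exchanged Gng13 (15.4%) with Nyx (12.9%) and left the others in place except Cacna1s and Trpm1 (7.83% and 7.86%). With 1 library per genotype there is no replicate spread against which to set neighbours in this order.

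The first comparison asked whether open chromatin at these genes differed without Casz1. It showed no difference by genotype that stood beyond the spread of libraries. In the Trpm1 window, ATAC peaks covered 851 bp in control 1, 5248 bp in control 2, 4148 bp in cKO 1 and 2231 bp in cKO 2. The 2 control libraries lay on either side of both cKO libraries. In the Grm6 window the values were 212, 2329, 1826 and 298 bp in the same order of libraries, and in the Gpr179 window 1436, 5779, 5244 and 2400 bp. The Prkca window, the longest, held 1545, 21664, 18073 and 4838 bp. Here as well control 1 was lowest and control 2 highest.

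Mean covered bases were 3049.5 ± 3109 bp in control and 3189.5 ± 1356 bp in cKO for Trpm1 (SD, n = 2 each), and 1270.5 ± 1497 and 1062 ± 1080 bp for Grm6. The largest difference of means was at Scgn, 1397 ± 1976 bp in control and 950.5 ± 1344 bp in cKO. For none of the 10 genes did the cKO libraries both lie above or both below the controls (0 in either direction), where 0.12% of all genes had both cKO above and 0.0416% had both below. The exact permutation test over the 4 libraries (two-sided) gave p = 1 for each gene, and with 2 libraries per genotype it cannot go below 0.333. Nothing in the labels says that the libraries came from separate animals, though the 2 experiments were run on separate days.

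What the 4 lists did follow was their own length. The lists held 40435 peaks over 11.8 Mb in control 1, 110741 over 61.0 Mb in control 2, 93767 over 52.7 Mb in cKO 1 and 60824 over 20.004 Mb in cKO 2. For 9 of 10 genes covered bases ran in that order, from control 2 to cKO 1, cKO 2 and control 1, and the tenth, Scgn, was at 0 in both short lists. Over all genes, 66.0% had this order. Both long lists lay above both short ones at 10 of 10, and at 85.1% of all genes. The names of the peaks in both long lists carry the number 3 after the sample's name, and those of the short lists carry 1 and 5; the labels do not say whether these numbers mark a day. Within the long pair, cKO 1 was below control 2 at 10 genes (72.2% of all genes), and within the short pair cKO 2 was above control 1 at 9 (79% of all genes). Hence, with control 1 left out, both cKO libraries lay below the remaining control at 10 genes (72.1% of all genes), and with control 2 left out they lay above it at 9 (78.8% of all genes). The part of list length in any single difference was not tested.

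**Figure D4:**
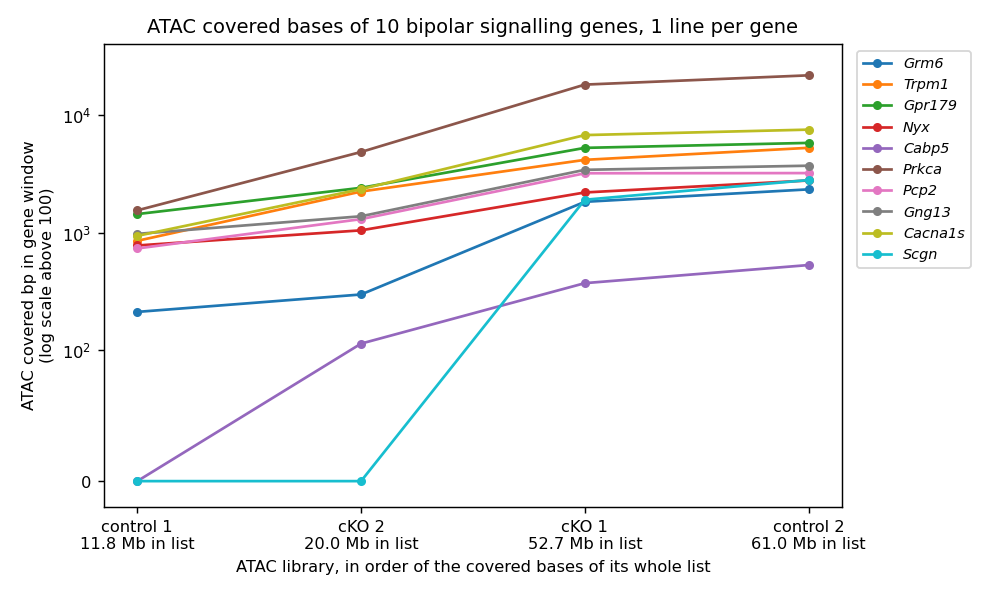
ATAC covered bp in the window of each gene (vertical axis, log scale above 100) for the 4 libraries, placed from left to right by the covered Mb of the whole list, 1 line per gene. The lines climb with list length, and control 1 and control 2 stand at opposite ends.

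Single open regions gave the same picture. Merged over the 4 lists, the 10 windows held 120 ATAC regions, 50 of them in Prkca. All 4 lists called 24 (20%, beside 28.2% of 118718 regions over the genome), and 36 (30.0%, beside 28.01%) were called in both long lists alone. No region was called in both controls and neither cKO list, as 146 (0.123%) were over the genome. The reverse held for 2, both inside Prkca, at 322.8 and 138.6 kb from its start and 255 and 296 bp wide, without either mark. Genome-wide 325 regions (0.274%) were of that kind, and no gene of the 10 had an ATAC peak in the window of both cKO lists and of neither control list (0.0555% of all genes).

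Regions in the windows met H3K27ac at 41 of 120 in control (34.2%, beside 36.8% of all regions) and at 42 in cKO (35%, beside 36.6%). Of these, 34 met it in both genotypes, 7 in control alone and 8 in cKO alone. H3K27me3 lay over 21 regions in either genotype (17.5%, beside 12.9% and 12.8%), among them 4 of the 5 regions of Grm6. Without Prkca, 18 of 70 regions met H3K27me3 (25.7%). In control, 7 regions met both marks, and 56 met neither in either genotype.

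The second comparison was of H3K27ac, with 1 library per genotype and hence no test. A gene was called when its covered bases differed by at least 1.5 times and 200 bp. Trpm1 and Pcp2 were called lower in cKO (2 of 10), and 3.27% of all genes were. No gene of the 10 was called higher, and 1.72% of all genes were. Counting any amount, 7 of 10 had fewer covered bases in cKO and 2 had more, where 51.7% of all genes had fewer and 27.5% more. Many of all genes had no H3K27ac in either list, whereas 9 of the 10 had some. Of the 17149 genes with H3K27ac in either list, 11182 had fewer and 5953 more. The median change over the 10 was -152.5 bp, and over all genes -19 bp. The cKO list was itself shorter in bases (51.6 against 55.4 Mb). It held more peaks (77357 against 71605), which were narrower (median 325 against 400 bp). The members' median became 8.96 bp once each list was scaled to its covered bases. The part of peak width in these changes was not tested. In whole tissue, fewer cells of a type and less mark per cell cannot be told apart.

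At Trpm1, H3K27ac covered 4418 bp in control and 2622 bp in cKO, a fold of 1.68. Inside the gene body it covered 3110 and 1447 bp, 2.15-fold. Among its 11 control peaks, 6 had no cKO peak over them (1419 bp together), and 3 of the 8 cKO peaks lacked a control peak (519 bp). The 2 peaks 40.5 and 41.3 kb past the second start, of 305 and 360 bp, were among those in control alone. The peak at the second start was in both lists, and so was one 46.6 kb past it, 710 bp wide in control and 328 bp in cKO. When the lists were brought to equal covered bases by keeping the widest peaks, the fold was 1.45, short of the call.

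TRPM1 is also made by pigment cells, so pigment epithelium genes were read beside it. Of 6 such genes, Dct, a melanin enzyme, had 1363 bp of H3K27ac in control and 525 bp in cKO, and Mlana 150 and 0 bp. Tyrp1 went the other way, with 1336 and 1751 bp, and Pmel had 3528 and 3538 bp. The defining genes Rpe65 and Tyr were at 0 in both libraries. Over the 6 genes the sum was 6377 bp in control and 5814 bp in cKO, and 2 of 6 had an H3K27ac peak at a gene end in either. The part of pigment cells in the Trpm1 difference was not tested.

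At Pcp2, H3K27ac covered 3283 bp in control and 2177 bp in cKO, 1.51-fold, all of it at other genes. Without the bases at other genes nothing remained in either list, and with 5 kb flanks the values were 1149 and 1191 bp. The 3 control peaks with no cKO peak over them (820 bp) lay 14.4 to 18.3 kb on the far side of the gene. None of the called bases lay on Pcp2 itself.

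The other 8 genes stayed short of the call. Gpr179 had 8846 bp covered in control, against 7398 bp in cKO, and 5 of its 11 control peaks lacked a cKO peak. Gng13 had 2031 and 1735 bp, none of it on the gene body. Cacna1s had 4169 and 4206 bp over the window, a direction that turned once other genes were left out. Its body held 291 bp in control, in peaks near the 3′ end, and 0 in cKO. It was thus called lower over the body, with 5 kb flanks (333 and 0 bp) and without bases at other genes (651 and 0 bp). Prkca had 21340 and 21050 bp, Nyx 2543 and 2537 bp, and Grm6 472 and 457 bp, at most 1.03 times apart. Scgn had none in control and a single peak of 132 bp in cKO, 57.3 kb from its start.

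**Figure D5:**
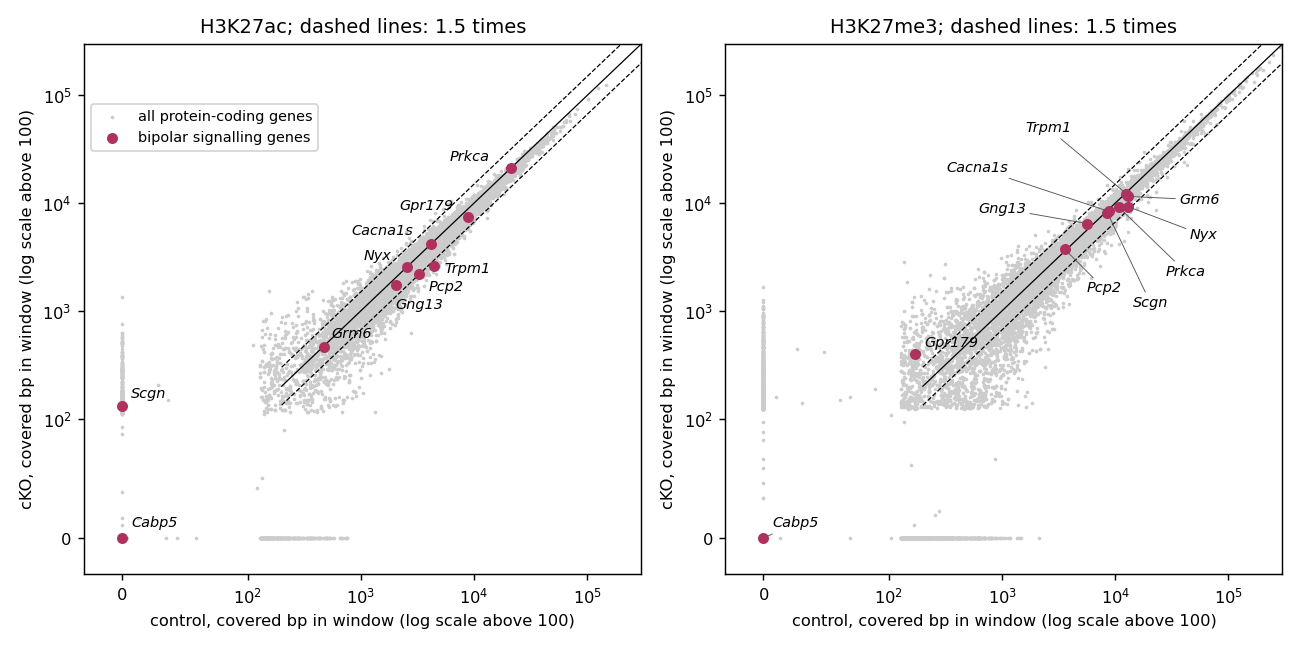
Covered bp in the gene window in control (horizontal) and cKO (vertical) for H3K27ac and H3K27me3, both axes on a log scale above 100; grey points are all 21631 protein-coding genes, red points the 10 bipolar signalling genes, and dashed lines mark 1.5 times. Trpm1 and Pcp2 lie at or below the lower dashed line for H3K27ac, and Gpr179 above the upper one for H3K27me3; a call also needed a change of 200 bp.

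The third comparison was of H3K27me3, again without replicates. No gene of the 10 was called lower in cKO, and 6.55% of all genes were. Only Gpr179 was called higher (1 of 10, beside 4.39% of all genes). Counting any amount, 6 of 10 had fewer covered bases and 3 had more, beside 37.2% and 28.8% of all genes, many of which had none in either list. The median change was -303 bp over the 10 and 0 over all genes. The Gpr179 call rested on 1 small peak per list at different places, 170 bp at chr11:97336848-97337017 in control and 399 bp at chr11:97338489-97338887 in cKO.

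Nyx had the largest change of covered bases, from 12982 bp in control to 9260 bp in cKO, 1.40-fold and under the call. With 5 kb flanks it was called lower (5695 and 3502 bp, 1.63-fold), as it was with peaks of at least 200 bp (1.89-fold). The lists held 34 peaks there in control and 36 in cKO, of which 18 in each met no peak of the other. The widest was 1029 bp in control and 1087 bp in cKO, at the same place 10.7 kb before the start. Nyx lies on the X chromosome, where the bases under H3K27me3 changed by -9.42% from control to cKO, against -1.94% on the autosomes. Of 966 X-linked genes, 9.52% were called lower and 40.5% had fewer covered bases (37.0% of autosomal genes). The part of this difference of chromosomes in the Nyx values was not tested. For H3K27ac the change was -5.69% on the X chromosome and -6.86% on the autosomes.

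Grm6 had 13066 bp of H3K27me3 in control and 11522 bp in cKO, Trpm1 12478 and 12255 bp, and Prkca 10682 and 9195 bp. Cacna1s had 8760 and 8377 bp (1104 and 590 bp on its body, 1.87-fold) and Scgn 8520 and 8115 bp. Gng13 had more in cKO, 5588 and 6464 bp, and Pcp2 3565 and 3743 bp. These 7 pairs of window values were at most 1.16 times apart. The blocks over the starts of Grm6, Scgn, Cacna1s and Gng13 were in both lists, and differed there in their edges. Over the 10 windows, 36 of 84 control peaks and 30 of 85 cKO peaks had no peak of the other genotype over them, and Nyx supplied 18 of each.

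Genes of the ON cascade and of its synapse were read from a list of 14. Among them were Gnao1 (the Go alpha subunit), Gnb3 and Gnb5 (beta subunits), and the RGS genes and their anchors. The list also held the synaptic proteins Lrit3, Lrit1, Elfn1 and Egflam and calcium channel subunits, so not all of the 14 are parts of the cascade itself. For H3K27ac 6 had fewer covered bases in cKO and 8 more, with a median change of 45.5 bp. Over all genes with H3K27ac in either list, 11182 of 17149 had fewer and 5953 more. Only Rgs7, an RGS protein that GPR179 anchors, was called. It was called higher, with 1160 bp in control and 1807 bp in cKO, beside 1.72% of all genes called higher. At gene ends 12 of 14 had H3K27ac in either genotype, beside 61.4% of all genes in each. By the same measure 4 of the 10 genes had it in control and 3 in cKO. For H3K27me3, 11 carried the mark, with 8 fewer and 3 more in cKO. Over all genes with this mark in either list, 8045 of 14316 had fewer. From the list 1 was called lower, beside 6.55% of all genes: Cacna2d4, a calcium channel subunit, with 1301 and 564 bp. A median of 2.03% of a listed gene's window was under H3K27me3 in control, where it was 8.32% for the 10 genes. In the other lists read here it was higher for bipolar transcription factors (39.7%), liver and muscle (14.4%) and neural retina genes (11.3%). It was lower for rod phototransduction (6.47%), microglia (4.36%), blood vessel (1.10%) and pigment epithelium genes (0.177%). These differences were not tested.

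Bipolar transcription factors, 14 genes that include Otx2, Bhlhe23 and Irx5, had H3K27ac over fewer bases in cKO at 13 and over more at 1 (Otx2, 11020 and 11178 bp), with a median change of -583 bp. Fewer bases in cKO were also found at 11182 of all 17149 genes with H3K27ac in either list. From the 14, 1 was called lower, beside 3.27% of all genes: Bhlhe23, a factor of rod bipolar cells, with 253 bp in control and 0 in cKO. Their H3K27me3 covered a median of 39.7% of the window in control and 40.6% in cKO, with 7 fewer, 6 more and none called. Rod phototransduction genes, the corresponding cascade of photoreceptors, had fewer H3K27ac bases at 13 of 18 and more at 5. Pde6a, a subunit of the rod phosphodiesterase, was called lower (1539 and 998 bp). In H3K27me3, Gngt1 (615 and 334 bp) and Rcvrn (278 and 0 bp), a transducin subunit and recoverin, were called lower, beside 6.55% of all genes.

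The tissue showed the marks of neural retina in both genotypes: 8 of 8 such genes, among them Rax, Pax6 and Crx, had H3K27ac at a gene end, against 1 of 6 liver and muscle genes. These 8 genes had H3K27ac over 132674 bp in control and 120442 bp in cKO, with fewer at 8 of 8. Over all genes with H3K27ac in either list, 11182 of 17149 had fewer. Blood vessel and microglia genes carried H3K27ac as well, and their sums too were smaller in cKO. The 6 blood vessel genes had it over 37345 bp in control and 29527 bp in cKO, with fewer at 6 of 6, and the 6 microglia genes 22627 and 19321 bp, with fewer at 3 and more at 3, and a peak at a gene end for 2 of 6 in control and 0 in cKO. Within the microglia list, C1qa (7452 and 6067 bp), C1qb (9454 and 7172 bp) and Aif1 (4755 and 4414 bp) had fewer bases. Cx3cr1 (665 and 671 bp) and Csf1r (158 and 191 bp) had more, and P2ry12 was called higher (143 and 806 bp), beside 1.72% of all genes. Called lower in H3K27ac were Cdh5 of the blood vessel list (1814 and 997 bp) and Myog of the liver and muscle list (854 and 563 bp). Over all genes 3.27% were called lower. Bases at other genes were not left out of these sums, and a peak in the windows of 2 listed genes counts for both. The part of blood vessel and microglia genes in the members' H3K27ac values was not tested. Casz1 itself had 101600 bp of H3K27ac in control and 92709 bp in cKO over its window, and ATAC peaks in all 4 lists; no source used here says which of its exons were removed, so peaks do not check the genotype labels.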

How the data were processed

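Peaks from 8 of the series' 10 samples were used. The 2 input samples were not analysed here. The submitters' processing notes list Bowtie2, MACS2, deepTools and the build mm10, and give no versions. The deposited lists give only each peak's start and end, with a score of 0 throughout, so they hold no read count, height, fold or p-value; depth per library, and the precision of any peak, is unknown. Per the file headers, here the peak names, peaks were called for each library by itself. No source used here gives the peak threshold or says whether reads were shifted for Tn5.

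Bases covered by peaks on chromosomes 1 to 19 and X were summed over each protein-coding gene and 20 kb either side, with Python 3.11.15 and numpy 2.4.6. Gene positions and promoters came from RefSeq tables of GRCm38.p6. ATAC genotypes were compared by an exact permutation test. Histone marks, with 1 library per genotype, were called at 1.5 times and 200 bp without a test. Regions and peaks were matched at a minimum overlap of 1 bp. The calculation was tested on simulated peaks. Groups and replicate numbers came from the sample titles. The number is not stated to mark a day, and deviations of same-numbered ATAC libraries correlated at -0.274 over 118718 regions, so it was not used as a block. All 10 genes were to be named, and of 3 related lists up to 4 called genes per mark and direction; Otx2 was named after its values were seen. Some listed genes are not reported here by name. The genes and lists were chosen with earlier results of these data known. Alternatives were other flanks, leaving out other genes, peak width, equal or scaled lists, call size, leaving out Prkca, each ATAC library left out, and the pairing of replicates.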

Additional observations from a re-analysis of the deposited data

How the results depend on the processing

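The median H3K27ac change of the 10 genes, -152.5 bp as reported, was 0 with 5 kb flanks, -18.5 bp over gene bodies, -517.5 bp with 50 kb flanks, -3 bp without bases at other genes, -64 bp with peaks of at least 200 bp, -10.5 bp with lists of equal covered bases and -15 bp without Prkca. It turned to 8.96 bp with lists scaled to their covered bases. The median H3K27me3 change (-303 bp) was -94.5 bp over bodies, -77 bp with 50 kb flanks, -158.5 bp with peaks of at least 200 bp, -155 bp with equal lists and -47.8 bp with scaled lists. Genes called lower in H3K27ac, 2 as reported, numbered 0 with equal lists or a call at 2 times and 1 with scaled lists, where Trpm1 remained (1.57-fold). Pcp2 was also lost with 5 kb flanks (a change of 42 bp the other way), 50 kb flanks (1.20-fold) and over the body. Genes called higher in H3K27ac became 1 (Scgn) with no minimum change. Genes called higher in H3K27me3 became 0 with 50 kb flanks, and called lower became 1 with 5 kb flanks (Nyx), with bodies alone (Cacna1s) and with peaks of at least 200 bp (Nyx). The shares of all genes called were given for the main setting alone, so the counts of calls under other settings have none beside them. With equal lists, 2 genes (Pcp2 and Cacna1s) had ATAC cover in both cKO libraries above both controls. Control 2, cut to its 8388 widest peaks, covered 0 bp at both. At Cacna1s the lower cKO value was 943 bp, and control 1 had 938 bp. The share of all genes under this setting is not given here. Leaving out 1 ATAC library gave 0 to 9 genes with cKO above and 0 to 10 with cKO below: 9 without control 2 and 10 without control 1. Compared within replicate numbers (the replicate block), 0 genes moved one way in both pairs, and 0 with the pairing crossed, an alternative chosen after seeing the data. Genes with a window peak fell with equal lists to 4 in cKO 1, 2 in control 2 and 2 in every ATAC list; over bodies there were 5 in control 1, in every ATAC list and in control H3K27ac, and 4 in cKO H3K27ac, which also had 4 without other genes. The number called lower in H3K27ac stayed at 2 with other genes in place of Pcp2: Cacna1s with 5 kb flanks, over bodies and without bases at other genes, and Cabp5 with 50 kb flanks (730 and 467 bp). Another 119 values for the 10 genes together, mostly counts, stayed within 1.5 times, which does not say that they rest on the same genes. Without read counts, a peak missing from a short list may lie below that library's threshold.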
